A study of Mus musculus with 4 samples.

Results

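The circadian clock is the set of genes that keeps time inside a cell. The 10 clock genes described here were the rows of the deposited count table whose symbol was Arntl, Clock, Per1, Per2, Per3, Cry1, Cry2, Nr1d1, Nr1d2, or Dbp, out of 27179 genes in all. All 10 were found and all 10 had enough counts to be tested. In cultured ILC2s of the mouse large intestine, the fitted change with the bile acid DCA was above 0 for each of the 10 genes, but none passed the test, and 1 vehicle library held low values for several of them.

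The cells were type 2 innate lymphoid cells (ILC2s), lymphocytes that carry no antigen receptor and release type 2 cytokines. They were sorted from the large intestine of wild-type C57BL/6 mice, housed under equal 12-hour spans of light and darkness. By the study's methods its mice were 6 to 14 weeks old, or 6 to 8 weeks in another passage, and its C57BL/6J mice were described as both sexes in 1 passage and as males in another. All of them were grown for 5 days in IMDM medium with the growth factors IL-7 and IL-2 and the activating cytokines IL-33 and IL-25, each at 10 ng/mL. The cells were then given vehicle (2 libraries) or 100 μM DCA, deoxycholic acid, a bile acid made by gut bacteria (2 libraries), for 16 hours by the submitters' design text and 24 hours by the study's methods. Nothing in the sources used here says that the libraries of a group came from separate mice or cultures, so the p-values measure only the spread between these libraries. The hour of day at which cells were sorted, treated, or harvested is not given in the sources used here, and each treatment was sampled at a single time, so a level here is not a rhythm.

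In the clock, the proteins of Arntl (BMAL1) and Clock pair up and bind E-box sequences, where they turn on the Period and Cryptochrome genes. The Period and Cryptochrome proteins then return to the nucleus and silence that pair, which closes a loop of about a day. A further loop runs through the nuclear receptors REV-ERB (Nr1d1 and Nr1d2) and ROR, which compete for ROR elements (ROREs) in genes such as Arntl, and another through D-boxes, which DBP, TEF, and HLF activate and NFIL3 represses. Rora and Nfil3 have a further role in ILC2s, whose development depends on them.

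Promoters were searched for letters that match the binding sequences of these loops. RefSeq promoter windows on GRCm38.p6, each 300 bases long from 250 bases before to 50 after a start site, were at hand for 9 of the 10 clock genes (13 windows) among 32851 windows of all genes. The E-box CACGTG, which reads the same on both strands, was in the windows of Cry1 and Per1 and in 7.15% of all windows. An E-box-like sequence, CACGTT on either strand, was in those of Cry1, Cry2, and Nr1d1 and in 4.68% of all windows. The D-box TTATGTAA, searched on both strands, was in the Per3 window at 2 places and in 0.938% of all windows. A RORE core, TAGGTCA or TGGGTCA on either strand, was in an Arntl window and in 6.45% of all windows. Of the 13 clock gene windows, 2 held the E-box, 3 the E-box-like sequence, 1 the D-box, and 1 the RORE core. Whether these counts exceed the shares of all windows was not tested. Each stretch below is written 5′ to 3′ on the gene's own strand with the matched letters in capitals, and no match overlapped another.
Arntl: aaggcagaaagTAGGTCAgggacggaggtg
Per1: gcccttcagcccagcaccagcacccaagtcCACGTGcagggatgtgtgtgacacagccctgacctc
Per3: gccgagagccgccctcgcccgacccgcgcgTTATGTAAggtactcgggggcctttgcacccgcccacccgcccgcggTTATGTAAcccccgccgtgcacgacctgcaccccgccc
Cry1: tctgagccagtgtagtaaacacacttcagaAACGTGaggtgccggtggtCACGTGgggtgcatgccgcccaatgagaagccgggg
Cry2: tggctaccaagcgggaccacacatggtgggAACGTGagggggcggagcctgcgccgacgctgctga
Nr1d1: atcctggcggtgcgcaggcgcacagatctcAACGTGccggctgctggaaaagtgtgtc

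The Arntl stretch is chr7:113207530-113207559 on the plus strand, with the RORE core 31 bases after a start that lies inside the gene as RefSeq draws it (from 113178471), in 1 of the 2 Arntl windows. The Per1 stretch is chr11:69098753-69098818 on the plus strand, with the E-box 166 bases before a start that lies inside the gene. For Per3 it is chr4:151044786-151044900 on the minus strand, with the D-boxes 205 and 158 bases before the start. Cry1 has its E-box-like sequence and its E-box 79 and 60 bases before the start, within chr10:85185079-85185163 on the minus strand. The E-box-like sequence of Cry2, in chr2:92434200-92434265 on the minus strand, begins 166 bases before the start, and that of Nr1d1, in chr11:98775378-98775435 on the minus strand, 28 bases before it. These distances are from RefSeq starts, which can differ from the GENCODE positions given below, for Nr1d1 98775377 against 98775333. A match describes these letters only and is neither a measured binding site nor a cause of any level given here. The windows of Clock, Nr1d2, and Dbp held none of the 4 motifs, which says nothing of sites outside these bases.

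The libraries held between 26564059 and 35838342 counts, except DCA replicate 2, which held 244165712. Levels are given as CPM (counts scaled to a common library size) after TMM scaling, which corrects for library size and composition. Where a gene had no counts, its level may still be as high as 3 counts would give: 0.0821 CPM for vehicle replicate 1, 0.115 CPM for vehicle replicate 2, 0.0929 CPM for DCA replicate 1, and 0.0125 CPM for DCA replicate 2. Intervals and floors made from counts cover counting error only, since the reads carried no molecular identifiers. Among the 11184 genes tested, 5.68% were at 0 in vehicle replicate 2, which had the fewest counts, against 0.867% in DCA replicate 2. The ILC2 markers Gata3, Klrg1, Il7r, and Il1rl1 were at 350.5 CPM or more in every library, and the 12 ILC2 markers summed to between 16109 and 17550 CPM with vehicle and between 18559 and 20752 CPM with DCA. Without Il5, which encodes the cytokine IL-5, the other 11 summed to between 8382 and 8683 CPM with vehicle and between 8418 and 8596 CPM with DCA. Klrg1, Il1rl1, and Areg were below both vehicle libraries in both DCA libraries, with log2 fold changes of -0.74, -0.60, and -0.60 (edgeR unadjusted p = 0.0154, 0.0229, and 0.0868, Benjamini-Hochberg adjusted p = 0.999 for each). Others of the 12 went the other way, with Il7r, Il2ra, Il5, and Icos above both vehicle libraries in both DCA libraries. Their log2 fold changes were 0.53, 0.47, 0.43, and 0.057 (edgeR unadjusted p = 0.0531, 0.0459, 0.0603, and 0.748, Benjamini-Hochberg adjusted p = 0.999 for each). One of the 12, Thy1, was at 4.24 CPM in DCA replicate 1 and at 0.0547 CPM or less in the other libraries. Of the T cell markers (7 genes, 20.6 to 34.6 CPM summed with vehicle, 15.9 to 27.4 CPM with DCA), Cd4 and Cd8a were at 0 throughout. The highest of them were Cd3g (11.9 and 25.6 CPM with vehicle, 21.3 and 10.5 CPM with DCA) and Trac (6.13 and 7.99 CPM with vehicle, 5.76 and 4.65 CPM with DCA). Of the B cell markers (4 genes, 47.3 to 55.2 CPM with vehicle, 37.8 to 44.5 CPM with DCA), nearly all counts were from Cd79b. The 5 macrophage and monocyte markers summed to between 24 and 24.7 CPM with vehicle and to 7.31 and 10.2 CPM with DCA, nearly all of it Cd68, with Csf1r at 0 throughout and Lyz2, Adgre1, and Itgam at or near 0. The 5 epithelial markers (8.21 to 13.5 CPM with vehicle, 7.74 to 9.00 CPM with DCA), the 4 mast cell and basophil markers (3.50 to 4.62 and 0.349 to 4.71 CPM, Fcer1a and Ms4a2 at 0), and the 5 ILC3 markers (0 with vehicle, up to 1.49 CPM with DCA, Il22, Il23r, and Ncr1 at 0) were low. The part of these cells in the clock gene values was not tested. In bulk libraries, fewer cells of a type and less RNA per cell cannot be told apart.

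**Figure D1:**
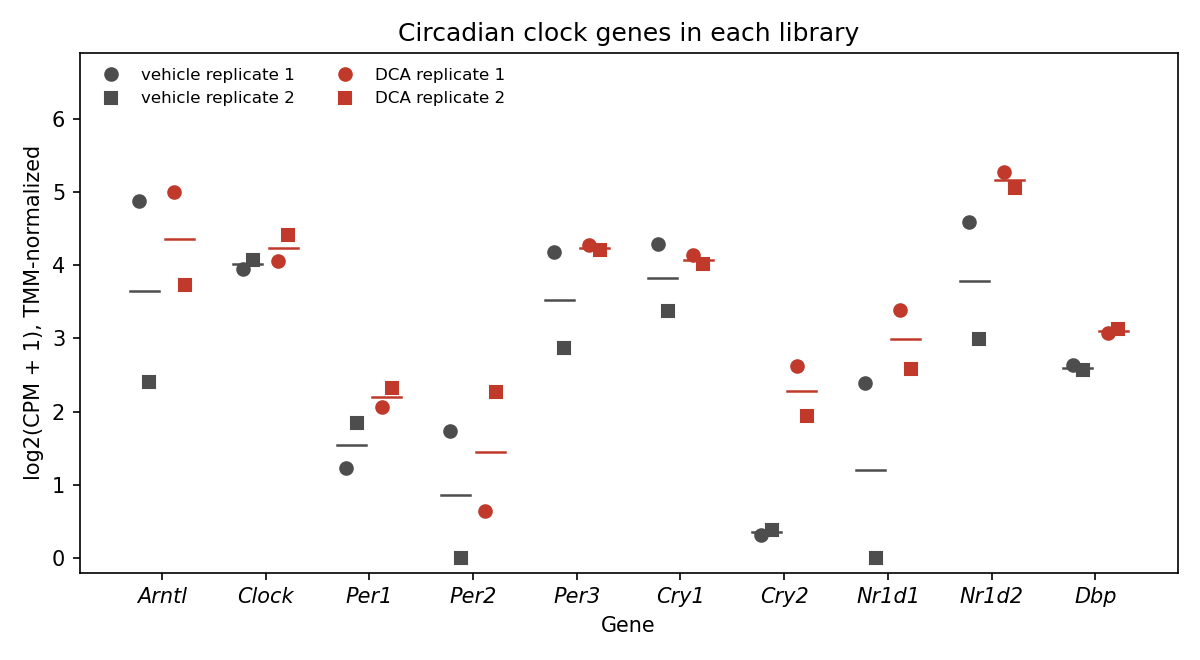
Level of each clock gene in each library, as log2(CPM + 1) after TMM scaling (vertical axis), with circles for replicate 1, squares for replicate 2, and bars for the mean of each treatment (n = 2 libraries). Both DCA libraries lie above both vehicle libraries for 6 of the 10 genes, and vehicle replicate 2 is low for several, with Per2 and Nr1d1 at 0.

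The activators Arntl and Clock came first in the comparison of DCA with vehicle, since their products drive the other members. Arntl (Entrez gene 11865, chromosome 7 from 113207465 to 113314126 on GRCm38) encodes BMAL1, the partner without which the core clock stops. It was at 28.4 CPM in vehicle replicate 1 and 4.32 CPM in vehicle replicate 2, and at 30.9 and 12.2 CPM in DCA replicates 1 and 2. The 2 vehicle libraries thus lay further apart than the treatments, with 1 library of each treatment high and the other low. The log2 fold change of Arntl was 0.40, with a standard error of 0.95 and a 95% interval from -1.90 to 2.69 (edgeR's quasi-likelihood test, unadjusted p = 0.690). Its sign rested on single libraries: the value was -0.40 without vehicle replicate 2, -0.41 without DCA replicate 1, and 2.29 without vehicle replicate 1. Clock (Entrez gene 12753, chromosome 5 from 76209868 to 76304792), which encodes BMAL1's partner, had the smallest ratio of highest to lowest library among the 10. It was at 14.4 and 15.9 CPM with vehicle and at 15.6 and 20.2 CPM with DCA, so the treatments overlapped. The log2 fold change of Clock was 0.24 (standard error 0.54, 95% interval -1.07 to 1.56, edgeR unadjusted p = 0.668).

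The Period genes encode the repressors whose build-up ends each cycle, and the 3 members differed in level and in how evenly the libraries held them. Per1 (Entrez gene 18626, chromosome 11 from 69095217 to 69109960), which responds quickly to outside signals, was at 1.34 and 2.60 CPM with vehicle and at 3.19 and 4.01 CPM with DCA. Its DCA libraries were both above its vehicle libraries, at means of 3.60 ± 0.584 against 1.97 ± 0.890 CPM (SD, n = 2 each). The counts behind this were low, with 49 and 68 in the vehicle libraries (95% Poisson intervals 36.3 to 64.8 and 52.8 to 86.2). The log2 fold change of Per1 was 0.87 with a standard error of 1.53 (95% interval -2.84 to 4.58, edgeR unadjusted p = 0.589).

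Per2 (chromosome 1 from 91415982 to 91459324), a core repressor, was the least evenly sampled member together with Nr1d1. It had 85 counts in vehicle replicate 1, 0 in vehicle replicate 2, 18 in DCA replicate 1, and 918 in DCA replicate 2, which is 2.33, 0, 0.557, and 3.82 CPM. Each treatment thus had 1 library with low or no Per2, and the groups overlapped. The floor of 0.115 CPM in vehicle replicate 2 lay below the Per2 level of each other library. Its log2 fold change of 0.91 had the widest interval of the 10 genes, -5.44 to 7.26 (standard error 2.62, edgeR unadjusted p = 0.740), and was -0.080 without vehicle replicate 2. Per3 (chromosome 4 from 151003652 to 151044665), which carried the 2 D-boxes shown above and acts more weakly in the core loop, was at 17.1 and 6.31 CPM with vehicle and at 18.3 and 17.5 CPM with DCA. Vehicle replicate 2 stood apart and the other 3 libraries lay close together. The Per3 log2 fold change was 0.61 (standard error 0.69, 95% interval -1.07 to 2.29, edgeR unadjusted p = 0.410) and was 0.067 without vehicle replicate 2. Under median-of-ratios or total-count scaling, its DCA libraries no longer both lay above its vehicle libraries. The same held in 1 of 3 random thinnings of DCA replicate 2 to the depth of the others. Per3 lies inside Camta1 on the same strand, but the annotated exons of these genes share no bases.

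The Cryptochrome genes encode the partners of the Period proteins and the strongest repressors of the loop. Cry1 (chromosome 10 from 85131700 to 85185064) was at 18.5 and 9.40 CPM with vehicle and at 16.7 and 15.1 CPM with DCA. Both DCA libraries lay between the vehicle libraries, and the log2 fold change was 0.19 (standard error 0.63, 95% interval -1.33 to 1.70, edgeR unadjusted p = 0.773) with all libraries and -0.22 without vehicle replicate 2. Cry2 (chromosome 2 from 92403646 to 92434043) differed from it. It had 9 and 8 counts in vehicle replicates 1 and 2 (95% Poisson intervals 4.12 to 17.1 and 3.45 to 15.8) and 166 and 682 counts in DCA replicates 1 and 2 (141.7 to 193.3 and 631.8 to 735.2).

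Scaled to library size, Cry2 was at 0.246 and 0.306 CPM with vehicle and at 5.14 and 2.84 CPM with DCA. Its mean was 14.5-fold higher with DCA, at 3.99 ± 1.63 against 0.276 ± 0.0421 CPM (SD, n = 2 each). This was the largest fitted change among the 10 clock genes, with a log2 fold change of 3.85, a standard error of 1.89, and a 95% interval from -0.72 to 8.41. It did not pass the test, since its edgeR p-value was 0.0855 unadjusted and the adjusted p was 0.999 (Benjamini-Hochberg), and it ranked 873 by p among the 11184 genes tested. With any 1 library left out, the log2 fold change of Cry2 stayed between 3.35 and 4.20. Other tools gave log2 fold changes from 1.93 (limma on log2(CPM + 1), which understates the change of low genes) upward, and DESeq2 gave the lowest unadjusted p, 0.0282. The antisense transcript D930015M05Rik shares 295 bases or 4.67% of the Cry2 exon length. It had 0 and 19 counts in DCA replicates 1 and 2, where Cry2 had 166 and 682. In vehicle replicates 1 and 2 it had 2 and 8 counts, where Cry2 had 9 and 8. The part of this overlap in the Cry2 counts was not tested.

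Counts within a family compare members in the same library, free of any scaling between libraries. Cry2 made up 1.31% of the Cry1 and Cry2 counts in vehicle replicate 1 (95% Wilson interval 0.693 to 2.48) and 3.15% in vehicle replicate 2 (1.60 to 6.09). With DCA the share was 23.5% in replicate 1 (20.6 to 26.8) and 15.8% in replicate 2 (14.7 to 16.9). The shares in both DCA libraries were above those in both vehicle libraries, with intervals that did not overlap between treatments. These intervals cover counting error only, not the spread between libraries, and the share was not tested between treatments. Per1 showed no such order, since its share of the Period counts was 6.46% and 29.2% with vehicle and 14.5% and 15.9% with DCA, the DCA libraries lying between the vehicle ones. Per3 held most of the Period counts in every library, from 69.1% to 83.0%.

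**Figure D2:**
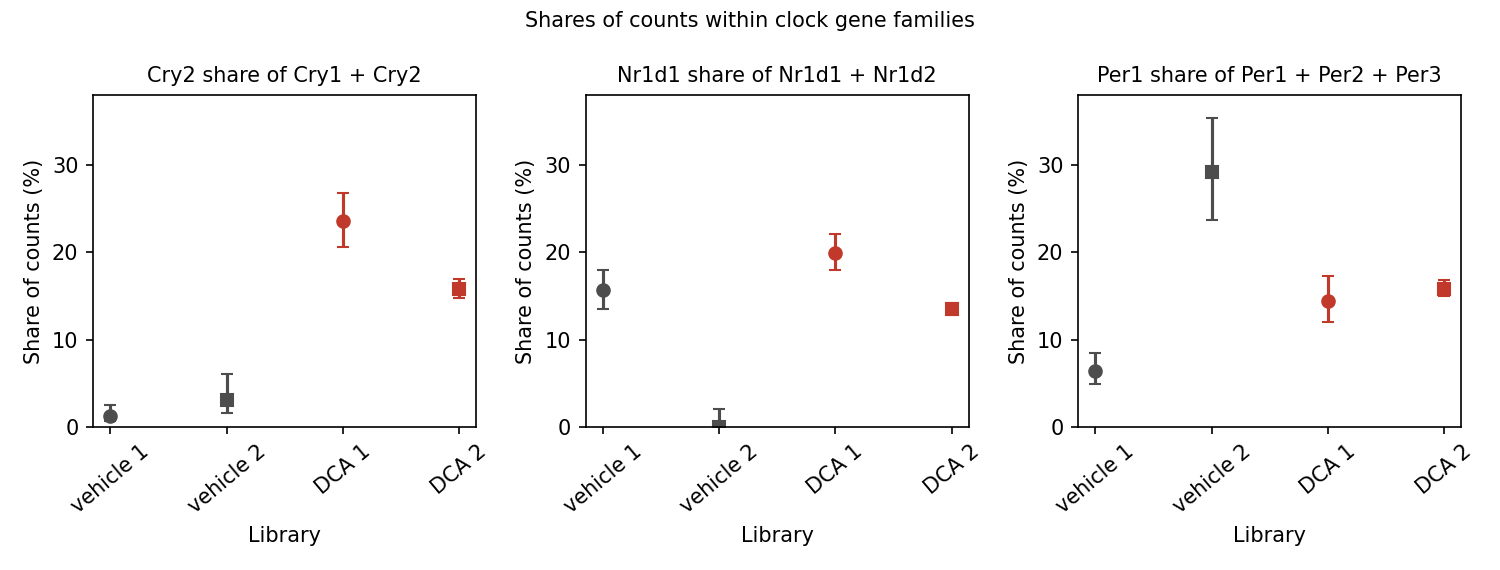
Share of counts, in percent, that Cry2 took of Cry1 plus Cry2, Nr1d1 of Nr1d1 plus Nr1d2, and Per1 of all 3 Period genes in each library, with 95% Wilson intervals for counting error. The Cry2 share was 1.31% and 3.15% with vehicle and 23.5% and 15.8% with DCA, whereas the other 2 shares overlapped between treatments.

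The REV-ERB genes encode nuclear receptors that bind heme and repress Arntl through ROREs. Nr1d2 (REV-ERBβ, chromosome 14 from 18204054 to 18239127) was at 23.0 and 6.95 CPM with vehicle and at 37.9 and 32.1 CPM with DCA. The DCA libraries both exceeded the vehicle libraries, with means of 35.0 ± 4.06 and 15.0 ± 11.3 CPM (SD, n = 2 each), a 2.34-fold ratio. The log2 fold change was 1.22, with a standard error of 0.65 and a 95% interval from -0.35 to 2.79 (edgeR unadjusted p = 0.107, Benjamini-Hochberg adjusted p = 0.999). It was 2.30 without vehicle replicate 1 and 0.61 without vehicle replicate 2, so its size rested on which vehicle library was used. Nr1d1 (REV-ERBα, chromosome 11 from 98767932 to 98775333) had 156 and 0 counts with vehicle and 305 and 1205 counts with DCA, or 4.27, 0, 9.44, and 5.01 CPM.

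The DCA libraries of Nr1d1 were above both vehicle libraries, but DCA replicate 2 exceeded vehicle replicate 1 by less than the gap between the 2 DCA libraries. Its log2 fold change was 1.76 (standard error 2.15, 95% interval -3.45 to 6.96, edgeR unadjusted p = 0.444) and was 0.76 without vehicle replicate 2. Nr1d1 took 15.6% and 0% of the REV-ERB counts with vehicle (0 of 182 in vehicle replicate 2, 95% Wilson interval 0 to 2.07) and 20% and 13.5% with DCA. In vehicle replicate 2, Nr1d1 was thus low relative to Nr1d2 as well as to the library. Nr1d1 shares 263 exon bases, 8.55% of its exon length, with Thra on the opposite strand, and whether counting used strand is not given in the sources used here. Thra had 13, 0, 0, and 678 counts in the order above, or 0.356, 0, 0, and 2.82 CPM. Both genes were at 0 in vehicle replicate 2. By CPM, Nr1d1 was highest in DCA replicate 1, where Thra was at 0, and Thra was highest in DCA replicate 2. The part of the overlap in the Nr1d1 counts was not tested.

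Dbp (chromosome 7 from 45705088 to 45710203) encodes an activator of D-box genes and is a direct clock output. It was at 5.20 and 4.93 CPM with vehicle and at 7.46 and 7.75 CPM with DCA. Relative to their means, replicates of each treatment lay closer together than for any other member, at 5.06 ± 0.189 and 7.60 ± 0.204 CPM (SD, n = 2 each), and the treatments did not overlap, with a 1.50-fold ratio. The log2 fold change of Dbp was 0.59, between 0.55 and 0.61 with any 1 library left out. Its standard error of 0.94 and 95% interval of -1.69 to 2.86 come from a spread that edgeR estimates partly from other genes of like abundance (unadjusted p = 0.555). Sphk2, on the opposite strand, shares 539 bases or 18.0% of the Dbp exon length, and was at 13.6 and 12.5 CPM with vehicle and at 14.4 and 14.1 CPM with DCA.

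Across the 10 genes, the fitted log2 fold change was above 0 for 10, against 50.7% of all genes tested, and ran from 0.19 for Cry1 to 3.85 for Cry2. Its median was 0.74, against 0.0080 over all 11184 genes. The members share libraries and regulate one another, so they are not 10 separate observations of a shift. DCA lay above vehicle in every library for Per1, Per3, Cry2, Nr1d1, Nr1d2, and Dbp, 6 of 10 genes, against 18.6% of all genes tested, and below both for 0 of 10, against 14.7%. For these 6 the two-sided exact permutation test gave p = 0.333 each, the smallest that 2 libraries against 2 allow, while it gave 0.667 for Arntl, Clock, and Per2 and 1 for Cry1.

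After Benjamini-Hochberg adjustment no clock gene had p under 0.05 by edgeR, which called 0 of all 11184 genes (0%). At an unadjusted p under 0.05, edgeR called 0 of the 10 clock genes and 478 genes in all, 4.27%. With the adjusted p, DESeq2 called 128 genes in all (1.14%) and limma 0, none of them a clock gene. The 95% intervals of all 10 clock genes held 0, and all 10 also held a log2 fold change of 1, a doubling.

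**Figure D3:**
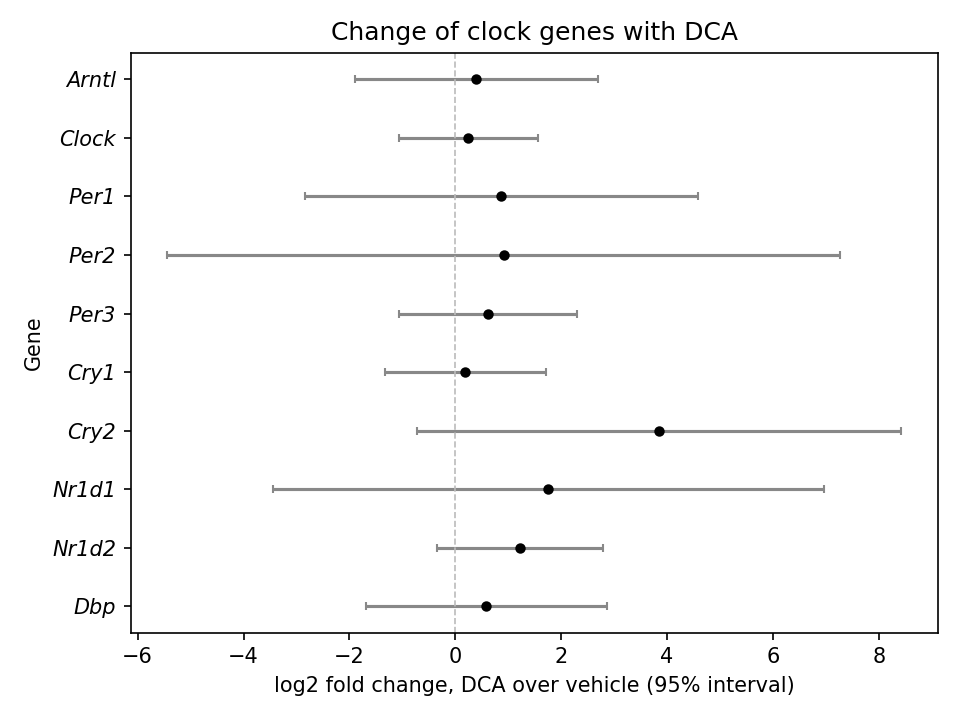
Log2 fold change of each clock gene, DCA over vehicle (horizontal axis), as a point with its 95% interval from edgeR's quasi-likelihood fit of all 4 libraries. All 10 points lie to the right of 0 and all 10 intervals cross it, the narrowest being that of Clock (-1.07 to 1.56) and the widest that of Per2 (-5.44 to 7.26).

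Vehicle replicate 2 stood apart for several of these genes. It was below vehicle replicate 1 for 7 of the 10 clock genes, against 50.9% of all genes tested, with Clock, Per1, and Cry2 as the exceptions. The summed level of the 10 genes was 115 CPM in vehicle replicate 1 and 50.7 CPM in vehicle replicate 2, against 145 and 121 CPM in the DCA libraries. The gap between the vehicle libraries, on the log2(CPM + 1) scale, exceeded the difference between the treatment means for 6 of the 10 genes. Without vehicle replicate 2, 7 of the 10 fitted changes were above 0 with a median of 0.43, and Arntl, Per2, and Cry1 were below 0. Without vehicle replicate 1, the vehicle group was the single library replicate 2, assumed to vary as the DCA pair does. All 10 values were then above 0, with a median of 1.88. Arntl, Per2, Nr1d1, and Nr1d2 then had an unadjusted p under 0.05 in edgeR, as did 13.5% of all genes tested, and Per2 and Nr1d1 were set against 0 counts. The lowest Benjamini-Hochberg adjusted p of a clock gene in that edgeR fit was 0.143. Over all genes vehicle replicate 2 was not singled out: the Pearson r of its log2(CPM + 1) values with DCA replicates 1 and 2 was 0.884 and 0.914, close to the 0.889 and 0.915 of vehicle replicate 1. The pair of vehicle libraries had r = 0.872 and the DCA pair r = 0.932 (genes are not independent replicates). What set the vehicle libraries apart for these genes was not tested.

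**Figure D4:**
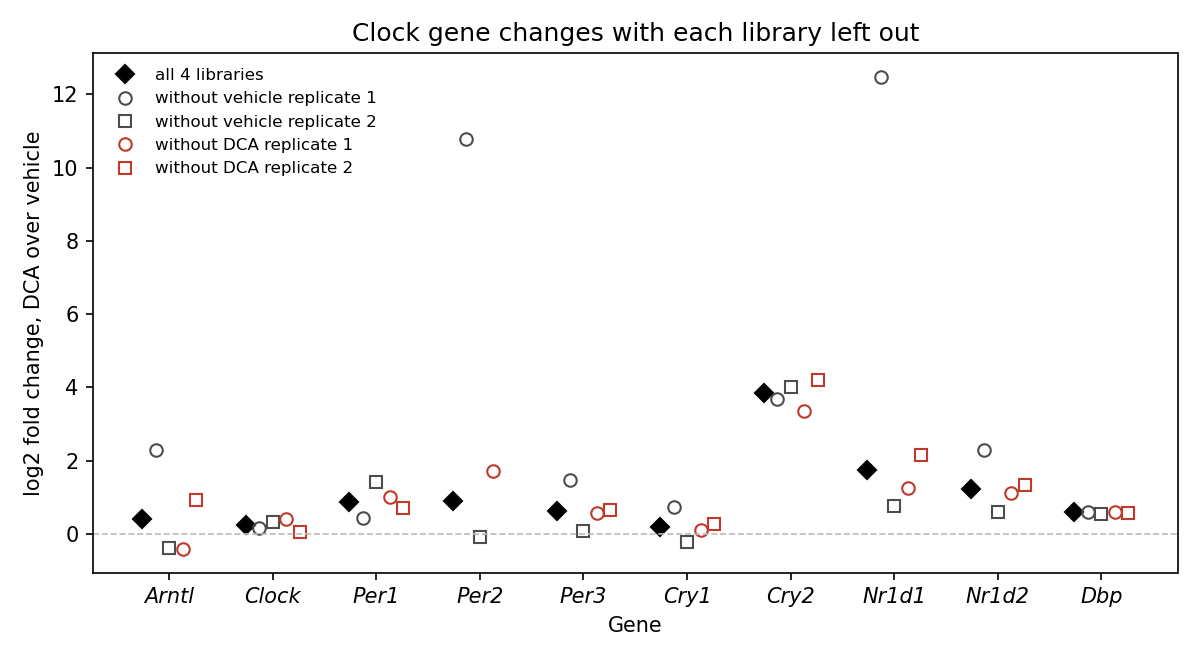
Log2 fold change of each clock gene, DCA over vehicle (vertical axis), with all 4 libraries (diamonds) and with each library left out in turn (open symbols). Arntl, Per2, and Cry1 drop below 0 without vehicle replicate 2, Cry2 stays between 3.35 and 4.20, and the highest points of Per2 (10.8) and Nr1d1 (12.5) stand against a vehicle group at 0 counts and are no bound.

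Levels of different genes were compared per length, as RPKM, the CPM divided by the summed exon length in kilobases. With vehicle, Cry1 was the most abundant at 4.18 ± 1.92 RPKM (SD, n = 2 here and below), followed by Nr1d2 at 2.77 ± 2.10, Arntl at 2.18 ± 2.27, Dbp at 1.69 ± 0.0632, Per3 at 1.22 ± 0.794, and Clock at 1.10 ± 0.0743 RPKM. Nr1d1 at 0.693 ± 0.981, Per1 at 0.350 ± 0.158, Per2 at 0.199 ± 0.281, and Cry2 at 0.0437 ± 0.00666 RPKM were the lowest. Each of the 9 pairs of neighbours in this order overlapped between its libraries, so the order of neighbours is not resolved. With DCA, Nr1d2 was highest at 6.47 ± 0.751 RPKM, ahead of Cry1 at 4.76 ± 0.332, Arntl at 2.87 ± 1.76, Dbp at 2.54 ± 0.0683, and Nr1d1 at 2.35 ± 1.02 RPKM. Per3 at 1.86 ± 0.0591, Clock at 1.31 ± 0.236, Per1 at 0.640 ± 0.104, Cry2 at 0.631 ± 0.258, and Per2 at 0.374 ± 0.394 RPKM followed. Of these 9 neighbouring pairs 4 did not overlap, namely Nr1d2 above Cry1, Cry1 above Arntl, Per3 above Clock, and Clock above Per1. By the length of the longest transcript instead, Arntl ranked second with either treatment. With DCA this put Arntl above Cry1, at means of 5.40 and 5.25 RPKM, so that pair's order depended on the length used. Nr1d1 and Per3 also changed places with DCA by this length, as did Per1 and Cry2.

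The accessory clock genes were 33 further genes, of which 26 were tested, and they did not share the direction of the 10. In this list 16 fitted changes were above 0 and 10 below, with a median log2 fold change of 0.12, and both DCA libraries lay above both vehicle libraries for 7 and below for 7, beside 18.6% and 14.7% of all genes tested. Of these 26 genes 1, Nfil3, had an unadjusted p under 0.05 in edgeR, a share no larger than the 4.27% of all genes tested. Of the 26 genes, 0 had a Benjamini-Hochberg adjusted p under 0.05 in edgeR, DESeq2, or limma. The transcription factors of the loops (11 genes, 6 tested) had 3 values above 0 and 3 below.

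Nfil3, the repressor of D-box genes that is also needed for innate lymphoid cells to form, was at 101 and 103 CPM with vehicle and at 221 and 139 CPM with DCA. Its vehicle libraries were nearly equal and both DCA libraries were higher, for a log2 fold change of 0.82 (standard error 0.30, 95% interval 0.093 to 1.54, edgeR unadjusted p = 0.0326, Benjamini-Hochberg adjusted p = 0.999). Ciart, which encodes the repressor CHRONO of the BMAL1 and CLOCK pair, was at 3.88 and 3.32 CPM with vehicle and at 17.7 and 10.5 CPM with DCA. Among the loop factors tested it had the largest fitted change, a log2 fold change of 1.97 (standard error 0.82, 95% interval -0.018 to 3.95, edgeR unadjusted p = 0.0516), and its mean ratio was 3.91. DESeq2 and limma gave Ciart an unadjusted p under 0.05. Among the accessory genes, the places of matches were looked up for Ciart alone, so matches in the windows of the others are not given. The Ciart window held 3 E-boxes, 116, 58, and 44 bases before the start, while 7.15% of all windows held the E-box at least once. Whether these bear on its level was not tested. The stretch is chr3:95882237-95882374 on the minus strand of GRCm38.p6, with the E-boxes in capitals.
Ciart: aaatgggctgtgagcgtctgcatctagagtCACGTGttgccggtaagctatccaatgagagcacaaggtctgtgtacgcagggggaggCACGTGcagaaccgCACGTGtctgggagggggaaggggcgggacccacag

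Rora, which encodes the ROR receptor that opposes REV-ERB and is an ILC2 lineage factor, was at 35.2 and 48.3 CPM with vehicle and at 70.1 and 38.4 CPM with DCA. The groups overlapped (log2 fold change 0.38, edgeR unadjusted p = 0.406). The D-box activators did not follow Dbp: Tef was at 17.0 and 10.5 CPM with vehicle and at 7.34 and 8.93 CPM with DCA, and Hlf at 204 and 125 CPM with vehicle and at 160 and 161 CPM with DCA. Their log2 fold changes were -0.76 and -0.039 (edgeR unadjusted p = 0.322 and 0.902). Bhlhe40, an E-box repressor, was at 45.3 and 62.6 CPM with vehicle and at 42.4 and 39.8 CPM with DCA, so that its DCA libraries, like those of Tef, were below both vehicle libraries (log2 fold change -0.39, edgeR unadjusted p = 0.299). Npas2 and Arntl2, the paralogs of Clock and Arntl, had 75 and 26 counts or fewer per library and were not tested, nor was Rorb at 20 counts or fewer, while Bhlhe41 was at 0 in all 4 libraries.

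The modifiers of clock proteins and their cofactors (16 genes, all tested) had 11 values above 0 and 5 below, with 0 at an unadjusted p under 0.05. Prkaa1, a catalytic subunit of the energy-sensing kinase AMPK, which marks Cryptochromes for breakdown, had the smallest p upward, at 18.1 and 10.9 CPM with vehicle and at 40.1 and 23.6 CPM with DCA (log2 fold change 1.13, edgeR unadjusted p = 0.0788). The output genes (6 genes, 4 tested) had 2 values above and 2 below 0. The smallest p upward among them was that of Por, the electron donor of cytochrome P450 enzymes (log2 fold change 0.27, edgeR unadjusted p = 0.321), and the smallest downward that of Wee1, a kinase that holds back mitosis (log2 fold change -0.59, edgeR unadjusted p = 0.313). Por was at 271 and 189 CPM with vehicle and at 273 and 283 CPM with DCA, and Wee1 at 28.0 and 31.4 CPM with vehicle and at 27.2 and 12.2 CPM with DCA. Usp2 had 9 counts or fewer per library, and Ppara, a lipid-sensing receptor, was at 0.

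**Figure D5:**
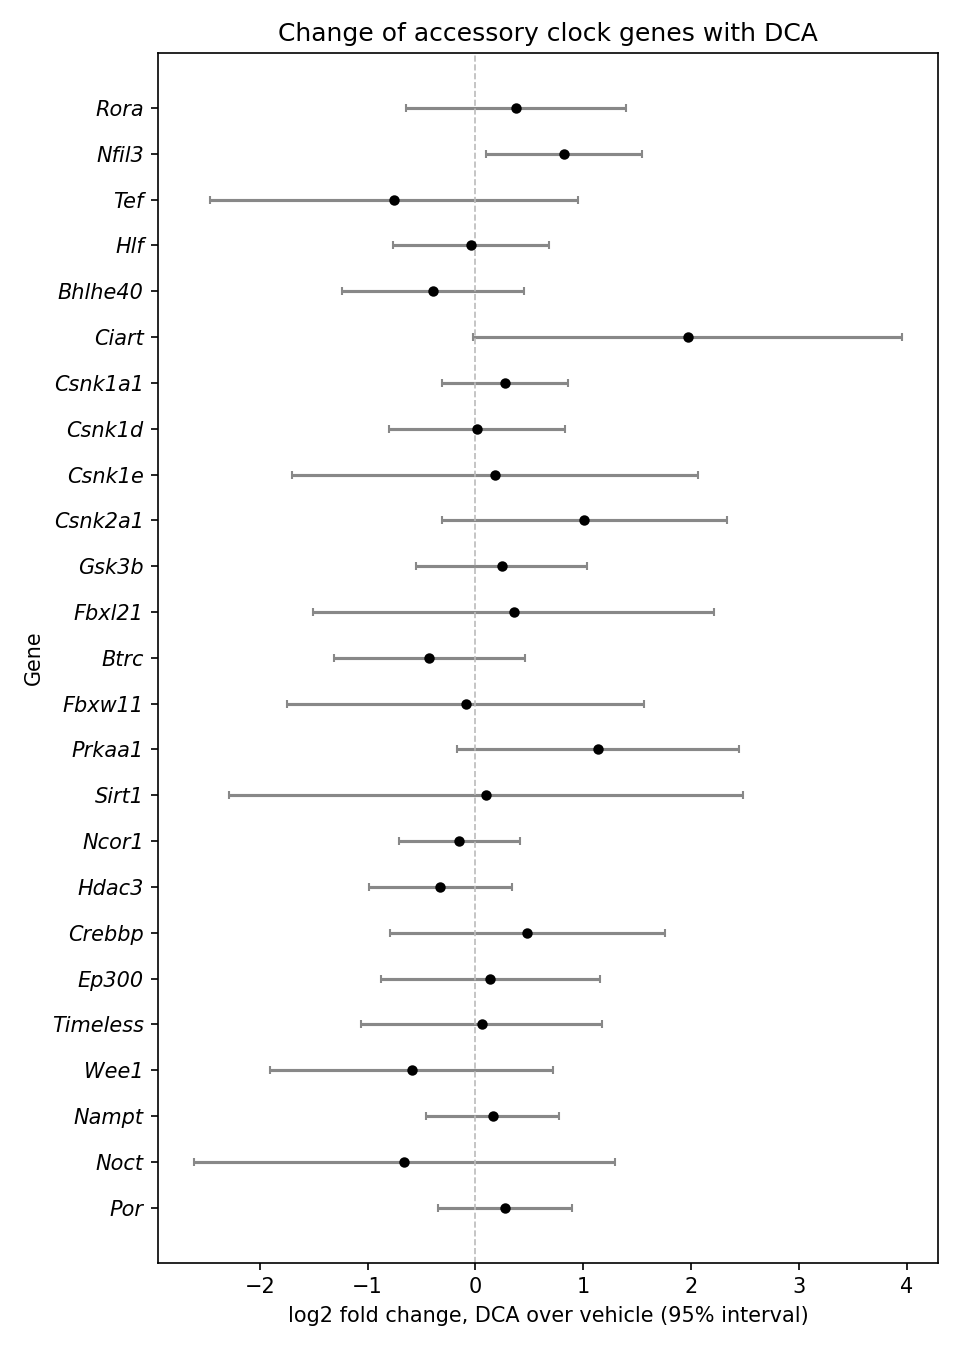
Log2 fold change of 25 of the 26 accessory clock genes tested, DCA over vehicle (horizontal axis), as points with 95% intervals from edgeR's quasi-likelihood fit, ordered as loop transcription factors, modifiers and cofactors, and outputs. The points fall on both sides of 0 (16 above, 9 below), and the interval of Nfil3 (0.093 to 1.54) alone does not cross 0.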

How the data were processed

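For RNA-Seq, full-length cDNA was made with a SMART-Seq kit and sequenced as paired reads. Per the labels and the study's methods, the authors trimmed with cutadapt 1.9, used HISAT2 2.2.1 for alignment to mm10, and name DESeq2 for finding changed genes. The counting tool, its annotation, and its strand setting are not given in the sources used here. The table the authors deposited is named for FPKM but holds whole-number counts per gene, not divided by length or library size. Genes with 2 counts outnumbered genes with 1 (484 against 253 in vehicle replicate 1), as when both mates of a pair are counted, which would widen the counting intervals and raise the floors. The 1275 rows without a symbol (0.137% to 0.173% of a library's counts) were kept under their identifiers. All columns of samples were mapped by name.

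Genes averaging 1 CPM or more were tested with edgeR 4.0.16 (TMM, quasi-likelihood test, two-sided, Benjamini-Hochberg over 11184 genes) in R 4.3.3, because the values were counts. The test was checked on simulated data. A standard error is the absolute log2 fold change over the square root of F, and the 95% interval uses the degrees of freedom of the fit. Both are approximate at low counts. Exact permutation tests were also run in R, and Poisson and Wilson intervals used scipy 1.17.1 in Python 3.11.15. Gene positions and exon lengths are from GENCODE M21 on GRCm38, and promoter windows from RefSeq on GRCm38.p6.

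The members and lists were chosen with earlier results of these data known. The genes named were the 10 clock genes, all accessory transcription factors of the loops, the member of each other accessory group with the smallest unadjusted p in each direction, and any accessory gene with an unadjusted p under 0.05. Some genes that this rule or the marker lists would name are not reported here. Overlapping genes and cell type markers are named only beside the results they touch. Alternatives were scaling by total count or by median of ratios, leaving out the filter or raising it to 5 CPM, DESeq2 1.42.0, limma 3.58.1 on log2(CPM + 1), the replicate number as a block, DCA replicate 2 thinned at random to 31503637 counts (and, added after seeing the data, in 2 further draws), each library left out, and another gene length.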

Additional observations from a re-analysis of the deposited data

How the results depend on the processing

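With all 4 libraries kept, 96 log2 fold changes of clock genes under 10 alternatives held 0 of reversed sign and 0 past an adjusted p of 0.05 (lowest adjusted p 0.585, by DESeq2). Clock genes with an unadjusted p under 0.05 numbered 0 with edgeR, 1 without the filter (Nr1d2), 1 with DESeq2 (Cry2), and 0 to 4 with each library left out, while the share of all genes tested was 4.27%, 4.78%, 7.01%, and 0.956% to 13.5%. For accessory genes this number was 1 with edgeR, and 2 each with DESeq2, with limma, and in the planned thinning of DCA replicate 2 (Nfil3 and Ciart in each). The share of all genes tested was 4.62% with limma and 4.24% in that thinning. Genes of the whole table with an adjusted p under 0.05 numbered 0 with edgeR, 36 without the filter, 128 with DESeq2, and 0 to 20 with each library left out, the 20 without vehicle replicate 1. With each library left out, the median log2 fold change of the clock genes ran from 0.43 to 1.88, Arntl from -0.41 to 2.29, Per2 from -0.080 to 10.8, and Cry1 from -0.22 to 0.73, and the cause was not tested. Per2 was not tested without DCA replicate 2, and a mean of at least 5 CPM left 6 clock genes. Chosen after seeing the data were 2 more random thinnings, with 1 accessory gene (Nfil3) under an unadjusted p of 0.05 in each, and the count of clock genes with both DCA libraries above both vehicle libraries under other scalings, which was 5 with median of ratios (without Per3), 6 with total counts (Clock in place of Per3), 6, 6, and 5 in 3 thinnings of DCA replicate 2, and 7 to 9 with each library left out, when the share among all genes rises to between 30.9% and 37.8%. The deviations of same-numbered libraries from their group means had a correlation of 0.0197 over genes. With 2 libraries per group this is a single contrast, so it cannot show whether same-numbered libraries shared mice or a culture. With a replicate block, the median of the clock genes was 0.87, with 0 genes past an adjusted p of 0.05 and 450 past an unadjusted one, against 478. With 2 libraries per group, counts of 9 and 8 for Cry2 and 0 for Per2 and Nr1d1 in vehicle libraries limit what can be resolved.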
